A study of Mus musculus with 2 samples.

Results

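Elastic fibres give the lung its recoil, and most of them are laid down while alveoli form after birth. Tropoelastin, the monomer encoded by *Eln*, is deposited on a scaffold of fibrillin microfibrils with the help of fibulins and microfibril-associated proteins, and is then cross-linked through lysine residues by enzymes of the lysyl oxidase family. In the alveolar wall this work is largely ascribed to myofibroblasts at the tips of the growing septa, and in larger vessels and airways to smooth muscle cells and adventitial fibroblasts. The 10 elastic fibre genes described here are *Eln*, the fibrillin genes *Fbn1* and *Fbn2*, the fibulin genes *Fbln1* and *Fbln5*, the cross-linking genes *Lox* and *Loxl1*, *Emilin1*, and the microfibril-associated genes *Mfap4* and *Mfap5*. They were taken by gene symbol from the 27998 genes of the count tables, and all 10 had UMIs in both libraries.

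The scRNA-seq data came from lungs of wild-type C57BL/6 mice at P14 (2 weeks of age) that had been kept from birth in room air (21% oxygen) or in hyperoxia (80% oxygen). The study's methods give the strain as C57BL/6J. The lungs of 8 mice were pooled into 1 library per condition, so no replicate was available and no test between conditions was made. For room air 39593888 UMIs (unique molecular identifiers, each marking 1 counted transcript) were spread over 4234 barcodes, and for hyperoxia 111934936 UMIs over 13223 barcodes. After low-quality barcodes and likely doublets had been removed, 3680 cells of room air (median 8050.5 UMIs) and 10472 cells of hyperoxia (median 7232.5 UMIs) remained, and 13 barcode sequences occurred among the cells of both libraries. Cells were clustered without the genes reported here and named from marker genes, and the rebuilt names carry the suffix "-like".

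Levels are given as CPM, the UMIs of a gene per 1000000 UMIs summed over the cells of a class in a library, with exact 95% Poisson intervals in parentheses. The reads tag the 3′ end of each transcript, so CPM was not divided by gene length and levels were compared between cells, not between genes. Ratios are log2 of hyperoxia over room air with exact 95% intervals. All intervals cover counting error only and not the differences between mice or between libraries. Because tissue was digested before capture, RNA released from broken cells reaches every droplet, and B-like cells, which should lack these genes, served as the gauge of that background. The B-like class included a cluster of 1 cell of room air and 16 of hyperoxia led by *Slit2*, *Etv1* and *Slc1a3*. The alveolar fibroblast marker *Limch1* was also among its leading genes. The part of this cluster in the B-like levels and shares was not tested. *Eln* stood at 289 CPM (266 to 313) in B-like cells of room air and 294 (277 to 311) in those of hyperoxia, and *Mfap4* at 101 (88.2 to 116) and 135 (124 to 147). The other 8 members were at no more than 11.6 CPM there. After each cell had been thinned to 2000 UMIs, 40.2% of 351 B-like cells in room air versus 42.7% of 1047 in hyperoxia had a UMI of *Eln* (69.8% and 59.3% without thinning), so a UMI of *Eln* in a cell does not mark a cell that makes it.

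The stromal classes were checked against their markers first. Alveolar myofibroblast-like cells (425 in room air, 771 in hyperoxia) held all 8 of their markers in both libraries, summing to 9095 and 9313 CPM, with the proteoglycan gene *Aspn* highest at 3465 and 4562 CPM. Some markers of other cells also differed within this class. All 8 pericyte markers were detected and summed to 765 CPM in room air versus 1739 CPM in hyperoxia, with *Postn* highest at 408 and 1393 CPM, while the other 7 summed to 357 and 346 CPM. Smooth muscle markers summed to 952 CPM (7 of 8 detected, *Pln* at 0) and 1531 CPM (8 of 8), with *Des* highest at 333 and 696 CPM, and the 6 cycling markers, all detected, to 36.3 and 11.9 CPM, with *Mki67* highest at 25.5 and 7.9 CPM. Their part in the myofibroblast-like values of the elastic fibre genes given here was not tested. Alveolar fibroblast-like cells numbered 212 and 1165, adventitial fibroblast-like cells 40 and 206, smooth muscle-like cells 36 and 165, and pericyte-like cells 128 and 237. All 8 markers of each of these classes were detected in both libraries. They summed to 9367 and 10002 CPM in alveolar fibroblast-like, 10827 and 11426 CPM in adventitial fibroblast-like and 14091 and 14591 CPM in smooth muscle-like cells. In pericyte-like cells the sum was 17605 CPM in room air, with *Gucy1a3* highest at 5720 CPM, versus 12405 CPM in hyperoxia, with *Postn* highest at 4922 CPM. Several classes were spread differently over the clusters in the 2 libraries. In room air the alveolar fibroblast-like cells lay mainly in cluster 10 (166 cells), and in hyperoxia in clusters 0 and 1 (506 and 505 cells). The myofibroblast-like cells of room air lay mainly in clusters 5 and 3 (195 and 133 cells), and those of hyperoxia in clusters 2, 3 and 4 (334, 234 and 186 cells). With 1 library per condition, a cluster that holds cells of a single library cannot be told apart from that library.

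Over all cells kept, *Eln* stood at 7430.1 CPM in room air versus 5453 in hyperoxia, for a log2 ratio of -0.45 (-0.45 to -0.44). *Lox* showed the opposite, with 70.7 CPM in room air versus 128 in hyperoxia (log2 ratio 0.86, 0.80 to 0.92). *Fbln5* was at 183 and 245 CPM and *Mfap4* at 1843 and 2450.2 CPM. These whole-lung values combine the level in each class with the number of cells captured from it, and the classes are therefore described one at a time.

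The core protein gene *Eln* (chr5:134702593-134747323, minus strand, GRCm38) was highest in alveolar myofibroblast-like cells of both libraries. It reached 36560.0 CPM (36404 to 36717) there in room air versus 26286 CPM (26183 to 26389) in hyperoxia. The hyperoxia level was lower, with a log2 ratio of -0.48 (-0.48 to -0.47), which is less than the 1.5-fold difference (0.58 on the log2 scale) counted here. The class was made up of different clusters in the 2 libraries, and without cluster 5, which held mostly cells of room air, its log2 ratio was -0.12. The median over 418 of the room air cells was 366 UMIs of *Eln* per 10000, with the tenth and ninetieth percentiles at 93.8 and 628. Over 760 of the hyperoxia cells the median was 275 and these percentiles were 62.6 and 485. After thinning to 2000 UMIs, 100% of the room air cells and 99.9% of the hyperoxia cells of the class had at least 1 UMI of *Eln*.

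In room air vein-like endothelial cells ranked next for *Eln* at 14649.8 CPM (14275 to 15032), whose interval overlapped that of smooth muscle-like cells at 14109.9 CPM (13772 to 14453). Adventitial fibroblast-like cells followed at 9939.6 CPM, pericyte-like cells at 8292 CPM, alveolar fibroblast-like cells at 4476 CPM and artery-like endothelial cells at 2484 CPM. In hyperoxia the order below the myofibroblast-like cells was smooth muscle-like cells at 17110.2 CPM, adventitial fibroblast-like cells at 11202 CPM, pericyte-like cells at 10198 CPM, artery-like cells at 9474 CPM, alveolar fibroblast-like cells at 8244 CPM and vein-like cells at 6825 CPM. The intervals of these neighbours did not overlap. These levels are sums over each class, and the pericyte-like and artery-like classes each combined clusters of different *Eln* content, described below. By the median cell, pericyte-like ranked below alveolar fibroblast-like cells in both libraries. In UMIs of *Eln* per 10000, the pericyte-like medians were 2.39 (119 cells of room air) and 5.22 (210 of hyperoxia). Those of alveolar fibroblast-like cells were 38.4 (185 cells) and 76.2 (1053 cells). Smooth muscle-like cells had a log2 ratio of 0.28 (0.24 to 0.32) for *Eln*, but it lay below 0, between -0.44 and -0.08, under 5 of 10 other ways of filtering, scaling, clustering or naming the cells.

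**Figure D1:**
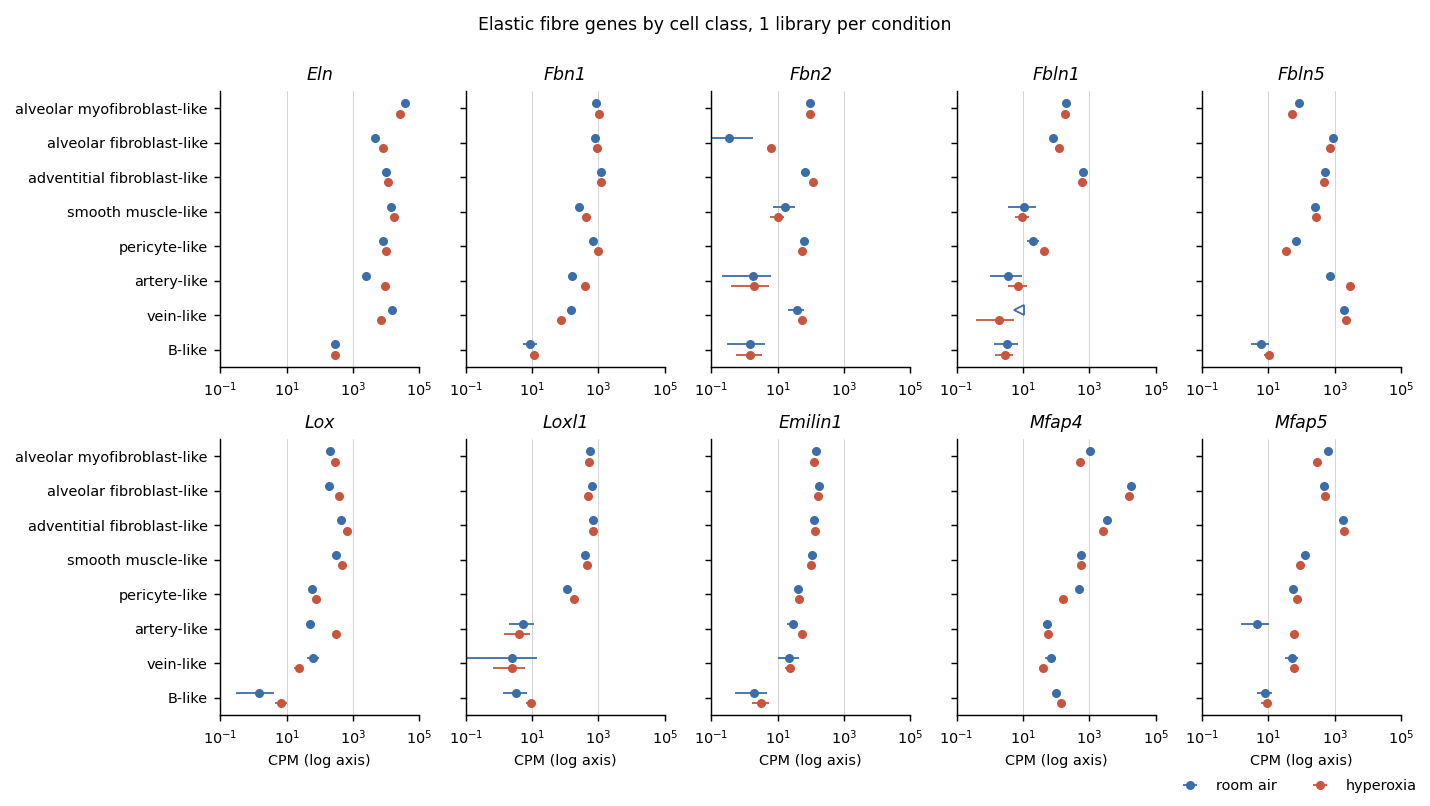
Level of each elastic fibre gene (CPM, log axis) in 5 stromal classes, artery-like and vein-like endothelial cells, and B-like cells as background. Points are 1 library each (blue room air, red hyperoxia), bars are exact 95% Poisson intervals and the open triangle marks a count of 0, drawn at the level of 3 UMIs. The intervals of *Fbn2* in alveolar fibroblast-like and *Loxl1* in vein-like cells of room air run past the left edge. *Eln* is highest in myofibroblast-like cells, *Mfap4* in alveolar fibroblast-like cells and *Fbln5* in vein-like cells of room air and artery-like cells of hyperoxia.

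In alveolar fibroblast-like cells, the *Tcf21*-lineage type that lies beside type 2 cells, *Eln* was higher in hyperoxia. The level was 4476 CPM (4401 to 4553) in room air versus 8244 CPM (8193 to 8295) in hyperoxia, for a log2 ratio of 0.88 (0.86 to 0.91), which was 0.44, within 1.5-fold, when 2 times the expected doublets were removed. The median over 185 cells of this class in room air was 38.4 UMIs of *Eln* per 10000, versus 76.2 over 1053 cells in hyperoxia. The other cells of the class did not enter these medians. The 2 main hyperoxia clusters had similar levels, 8136 CPM (8063 to 8210.4) in cluster 0 and 8421 (8349.8 to 8493) in cluster 1, and the main room air cluster had 4466 (4388 to 4545). Summed myofibroblast markers in these cells also differed, at 389 CPM in room air versus 648 CPM in hyperoxia, all 8 detected, with *Pdgfra* highest in hyperoxia at 324 CPM and *Wnt5a* highest in room air at 153 CPM. Their part in the difference of *Eln* was not tested.

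These levels and the cell numbers together set which class contributed the *Eln* transcripts. Myofibroblast-like cells held 77.3% (77.1 to 77.5) of all *Eln* UMIs in room air versus 51.9% (51.8 to 52.1) in hyperoxia. Alveolar fibroblast-like cells held 4.95% (4.87 to 5.03) and 21.2% (21.0 to 21.3). The classes also took different shares of the cells: myofibroblast-like cells were 11.5% of the cells kept in room air versus 7.36% in hyperoxia, and alveolar fibroblast-like cells 5.76% and 11.1%. How evenly digestion released each class in the 2 libraries was not tested.

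**Figure D2:**
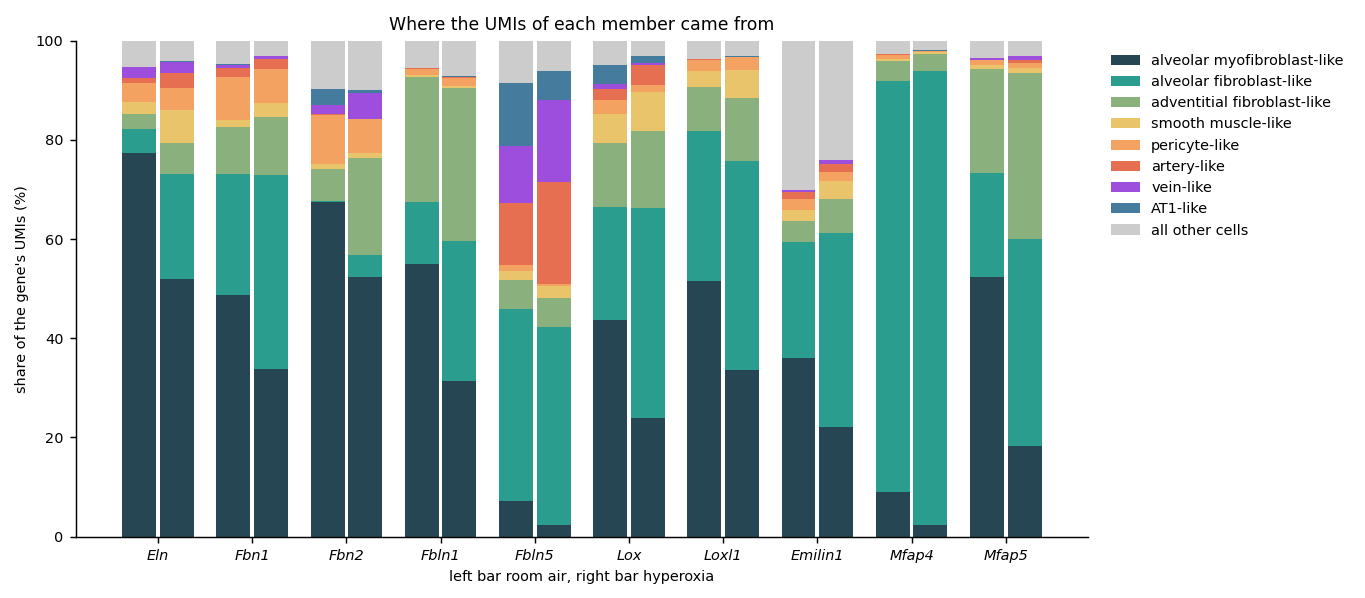
Share of all UMIs of each member (%, 0 to 100) that came from each cell class, with room air as the left and hyperoxia as the right bar of each pair. For *Eln* the myofibroblast-like share is 77.3% in room air versus 51.9% in hyperoxia, while *Mfap4* comes mostly from alveolar fibroblast-like cells in both libraries (82.9% and 91.7%).

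The fibrillins form the microfibril scaffold. *Fbn1* (chr2:125300594-125507993, minus strand), the main fibrillin of postnatal tissue, was highest in adventitial fibroblast-like cells, at 1173 CPM (1099 to 1251) in room air versus 1226 (1185 to 1268) in hyperoxia. It had log2 ratios above 0 in all 5 stromal classes. In myofibroblast-like cells it was at 827 CPM (803 to 850.4) in room air versus 1014 (994 to 1035) in hyperoxia, for a log2 ratio of 0.30 (0.24 to 0.35). In pericyte-like cells it was at 676 and 956 CPM (0.50, 0.38 to 0.62), and in smooth muscle-like cells at 259 and 412 CPM (0.67, 0.39 to 0.96), where it ran from 0.16 to 0.74 over 10 other settings. The 8 alveolar fibroblast markers in the smooth muscle-like cells summed to 446 CPM in room air (3 detected, *Limch1* highest at 225 CPM). In hyperoxia they summed to 770 CPM (6 detected, *Npnt* highest at 395 CPM), and their part in the *Fbn1* ratio was not tested. In adventitial fibroblast-like cells the interval of the *Fbn1* ratio included 0 (0.06, -0.04 to 0.17).

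*Fbn2*, on chromosome 18, encodes the fibrillin more typical of fetal tissue. Myofibroblast-like cells had 97.4 CPM (89.4 to 106) in room air versus 93.1 (87.1 to 99.5) in hyperoxia, with an interval of the log2 ratio from -0.22 to 0.09. In alveolar fibroblast-like cells it was represented by 1 UMI in room air versus 76 UMIs in hyperoxia (6.16 CPM), which lies below the mean of 10 CPM required for counting. Adventitial fibroblast-like cells had 67.2 CPM (50.3 to 87.8) and 121 (109 to 135), for a log2 ratio of 0.85 (0.43 to 1.30) that rested on 53 UMIs in room air. The adventitial cluster led by *Col11a1* held 65 cells of hyperoxia with 178 CPM of *Fbn2*, whereas the cluster led by *Lum* had 86.2 CPM in room air versus 92 in hyperoxia (log2 ratio 0.09, -0.42 to 0.64).

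The fibulins bind tropoelastin or the microfibrils and help to place elastin on the scaffold. *Fbln1* (chr15:85205949-85286535, plus strand) was highest in adventitial fibroblast-like cells at 639.8 CPM (585 to 698) in room air versus 617 (588 to 647) in hyperoxia. In hyperoxia 31 mesothelial-like cells followed with 505 CPM, while 0 of the 3680 cells of room air were given that name, which allows a share of up to 0.0815%. Alveolar fibroblast-like cells had 83.1 CPM of *Fbln1* in room air versus 123 in hyperoxia (log2 ratio 0.57, 0.37 to 0.77), and myofibroblast-like cells had 192 and 179 CPM (-0.10, -0.21 to 0.01).

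*Fbln5* (chr12:101746565-101819055, minus strand), whose product links elastin to integrins at the cell surface, had a different distribution from *Eln*. Its levels in vein-like cells were 1951 CPM (1816 to 2094) in room air versus 2209 (2138 to 2283) in hyperoxia. Type 1 alveolar epithelial-like (AT1-like) cells had 1341 CPM (1253 to 1434) and 1195 (1130.5 to 1263), while their *Eln* level, 146 and 128 CPM, was below that of B-like cells. AT1-like cells contributed 12.8% of all *Fbln5* UMIs in room air versus 5.89% in hyperoxia. Alveolar fibroblast-like cells had 862 CPM and 700.3 CPM (log2 ratio -0.30, -0.36 to -0.24). Myofibroblast-like cells stood far lower, with 83.6 CPM (76.3 to 91.4) in room air versus 50.9 (46.4 to 55.6) in hyperoxia, for a log2 ratio of -0.72 (-0.90 to -0.53), or -0.19 without cluster 5.

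Lysyl oxidases oxidise lysine residues of tropoelastin and collagen so that cross-links can form. *Lox*, on chromosome 18, was higher in the hyperoxia library in all 5 stromal classes, and each interval lay above 0. In alveolar fibroblast-like cells it was at 195 CPM (179.6 to 212) in room air versus 388 (377 to 399.6) in hyperoxia, for a log2 ratio of 0.99 (0.87 to 1.12). Adventitial fibroblast-like cells had 427 CPM (383 to 475) and 655 (625 to 687), for a log2 ratio of 0.62 (0.45 to 0.79). Smooth muscle-like cells had 314 and 468 CPM (0.57, 0.32 to 0.84). Myofibroblast-like cells had 197 CPM (186 to 209) and 285 (274 to 296), for a log2 ratio of 0.53 (0.43 to 0.63). In pericyte-like cells, at 58.5 and 78.5 CPM, the interval reached down to 0.02, and within both clusters of that class the ratio was below 0 (-0.06 and -0.61). The ratio of *Lox* over the pericyte-like class, reported as 0.42, ran from 0.04 to 2.27 over 10 other settings. After thinning to 2000 UMIs, which left out 27 and 112 shallower cells, 35.7% of alveolar fibroblast-like cells in room air versus 50.6% in hyperoxia had a UMI of *Lox* (73.6% and 85.7% without thinning). Among B-like cells the thinned count was 0 of 351 in room air, which allows a share of up to 0.855%, and the share was 1.62% in hyperoxia. Median depths before thinning were 15654 and 11007 UMIs in alveolar fibroblast-like cells and 4632 and 2974.5 in B-like cells.

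*Loxl1* (chr9:58287738-58313186, minus strand) encodes the lysyl oxidase that associates with elastic fibres through fibulin-5. It was lower in hyperoxia in alveolar fibroblast-like cells, with 623 CPM (595 to 652) in room air versus 494 (481 to 506) in hyperoxia, for a log2 ratio of -0.34 (-0.41 to -0.26). Myofibroblast-like cells had 553 CPM (534 to 573) and 508 (494 to 523), for a log2 ratio of -0.12 (-0.19 to -0.06), but 0.22 without cluster 5. Adventitial fibroblast-like and smooth muscle-like cells differed by less than counting error, with log2 ratios of -0.06 (-0.20 to 0.08) and 0.14 (-0.09 to 0.37).

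The remaining members encode proteins of the microfibril and of the elastin interface. *Emilin1* (chr5:30913402-30921277, plus strand), whose product lies between elastin and microfibrils, ranged among the stromal classes of room air from 41.9 CPM in pericyte-like to 182 CPM in alveolar fibroblast-like cells. Its log2 ratio lay below 0 beyond counting error in myofibroblast-like cells and in no other stromal class (147 and 125 CPM, -0.24, -0.36 to -0.11). General capillary endothelial-like cells held 14.7% of its UMIs in room air versus 8.03% in hyperoxia, and no more than 2.38% of the UMIs of any other member.

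*Mfap4* (chr11:61485431-61488900, plus strand), which binds tropoelastin and fibrillins, was highest in alveolar fibroblast-like cells at 18586 CPM (18432 to 18741) in room air versus 16055 (15984 to 16126) in hyperoxia, for a log2 ratio of -0.21 (-0.22 to -0.20). Adventitial fibroblast-like cells had 3413 and 2664 CPM (-0.36, -0.42 to -0.29). The 8 alveolar fibroblast markers, all detected in them, summed to 1142 and 722 CPM, with *Limch1* highest at 454 and 229 CPM, and their part in that difference was not tested. Smooth muscle-like cells had 576 and 554 CPM (-0.06, -0.25 to 0.14). Myofibroblast-like cells had 1054 CPM (1027 to 1081) in room air versus 523 (509 to 538) in hyperoxia, for a log2 ratio of -1.01 (-1.06 to -0.96). The median over 418 of the myofibroblast-like cells in room air was 7.67 UMIs of *Mfap4* per 10000, versus 3.40 over 760 of those in hyperoxia. The 8 alveolar fibroblast markers, all detected in the myofibroblast-like cells, summed to 151 CPM in room air versus 86.8 CPM in hyperoxia, with *Limch1* highest at 72.2 and 33.2 CPM, against 9367 and 10002 CPM in alveolar fibroblast-like cells. Whether these traces of another class carried part of the *Mfap4* difference was not tested.

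*Mfap5* (chr6:122505845-122529290, plus strand), which encodes a microfibril-associated glycoprotein, was highest in adventitial fibroblast-like cells at 1795 CPM (1703 to 1891) and 1854 (1803 to 1906). Myofibroblast-like cells had 620.1 CPM (599.9 to 641) in room air versus 289 (278 to 300.2) in hyperoxia, for a log2 ratio of -1.10 (-1.17 to -1.03). Alveolar fibroblast-like cells differed little, with 475 and 506 CPM (0.09, 0.01 to 0.18). After thinning, 44.0% of myofibroblast-like cells in room air versus 28.6% in hyperoxia had a UMI of *Mfap5*, against 1.71% and 2.01% of B-like cells (59.8% and 47.7% of myofibroblast-like and 3.88% and 2.56% of B-like cells without thinning). The median depth of the myofibroblast-like cells was 14161 UMIs in room air versus 12078 in hyperoxia.

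In myofibroblast-like cells, 3 of the 10 members (*Fbln5*, *Mfap4* and *Mfap5*) were at least 1.5-fold lower in hyperoxia and 0 were at least 1.5-fold higher. Of all 8404 genes with a mean of at least 10 CPM there, 5.69% were lower by that margin and 5.38% higher. The median log2 ratio was -0.18 over the 10 members and 0.03 over all these genes. In alveolar fibroblast-like cells, 9 members reached 10 CPM, of which 0 were lower and 2 (*Eln* and *Lox*) were higher, beside 6.98% and 8.26% of 8413 genes. In adventitial fibroblast-like cells 0 of 10 were lower and 2 (*Fbn2* and *Lox*) higher, beside 9.92% and 10.1% of 8401 genes. In smooth muscle-like cells 1 (*Fbn2*, on 8 and 19 UMIs, -0.75, -2.01 to 0.65) was lower and 1 (*Fbn1*) higher, beside 15.2% in either direction. In pericyte-like cells 2 (*Fbln5* and *Mfap4*) were lower and 2 (*Fbln1* and *Loxl1*) higher, beside 11.5% and 9.7% of 8568 genes. With 1 library per condition these counts describe the 2 libraries and carry no p-value. The smooth muscle-like values rested on 36 cells of room air. Without cluster 5 the myofibroblast-like ratio of *Fbln5* was -0.19, which left 2 lower members, and *Fbn1* in smooth muscle-like cells was within 1.5-fold under 4 of 10 other settings. *Fbn2* there ran from -1.73 to 0.50, so that its direction turned. Over the same 10 settings some other ratios also came within 1.5-fold. These were *Eln* in alveolar fibroblast-like cells (lowest 0.44), *Lox* in adventitial fibroblast-like cells (lowest 0.53) and, in pericyte-like cells, *Fbln1* (lowest 0.46), *Loxl1* (lowest 0.37) and *Fbln5* (nearest to 0 at -0.51). Pericyte-like *Mfap4* took the opposite sign in 1 setting.

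**Figure D3:**
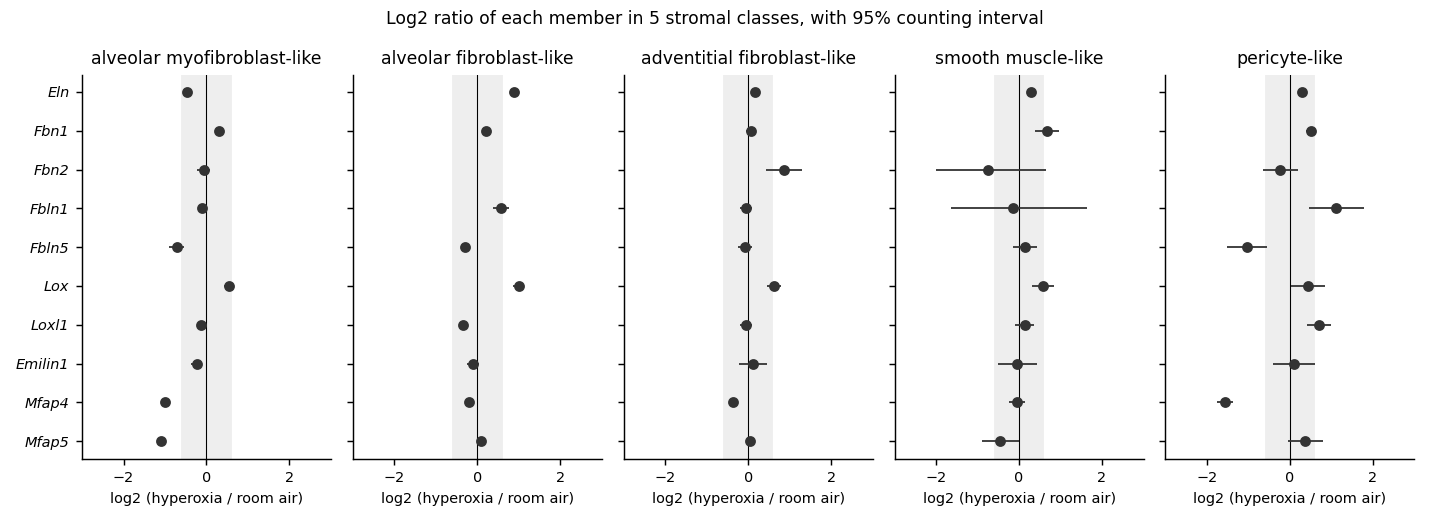
Log2 ratio of hyperoxia over room air for each member in the 5 stromal classes (x axis), with exact 95% counting intervals and the range within 1.5-fold shaded. Members with a mean under 10 CPM in a class are left out (*Fbn2* in alveolar fibroblast-like cells). *Mfap4* and *Mfap5* lie left of the shaded range in myofibroblast-like cells, and *Eln* and *Lox* right of it in alveolar fibroblast-like cells.

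The myofibroblast-like class was not uniform. Cluster 4, led by *Lrrc15*, *Grem1* and *Scx*, had the highest *Eln* level, with 48065 CPM in room air versus 35809 in hyperoxia. Cluster 3, led by *Stc1* and *Egfem1*, had the lowest, with 18270.2 and 12096 CPM. Cluster 2, led by *Pappa2* and *Trim67*, had 33936 and 31798 CPM. Cluster 5, which held 195 cells of room air and 17 of hyperoxia, had 45352 CPM in room air. *Eln* was therefore lower in hyperoxia within each of the 3 clusters that held at least 20 cells of both libraries, with log2 ratios of -0.42 (-0.44 to -0.41) in cluster 4, -0.59 (-0.62 to -0.57) in cluster 3 and -0.09 (-0.12 to -0.07) in cluster 2. Without cluster 5 the ratio of the class was -0.12.

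The other members also set these clusters apart. *Mfap5* stood at 1502 CPM in cluster 4 of room air, 558 in cluster 2 and 42.0 in cluster 3, and in hyperoxia at 608, 318 and 18.9 CPM. *Lox* had the same order, with 511, 208 and 36.4 CPM in room air versus 537, 313 and 62.9 CPM in hyperoxia. *Mfap4* was at 1848 CPM in cluster 4, 2767 in cluster 2 and 269 in cluster 3 of room air, and at 1029.8, 560.2 and 105 CPM in hyperoxia. Both *Mfap4* and *Mfap5* were lower in hyperoxia within all 3 clusters, with log2 ratios from -2.30 to -0.84 for *Mfap4* and from -1.31 to -0.81 for *Mfap5*. *Fbn1* was higher within all 3 (0.18 to 0.66). *Fbln5* was lower in clusters 2 and 3 (-1.10 and -1.13) and differed by less than counting error in cluster 4 (-0.05, -0.45 to 0.35), and without cluster 5 the class had a log2 ratio of -0.19 for it. *Loxl1* was higher in clusters 2 and 3 (0.26 and 0.23) and lower in cluster 4 (-0.38), against -0.12 over the class.

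The pericyte-like class held 2 clusters of very different *Eln* content. Cluster 9, led by *Higd1b*, *Olfr78*, *Fabp7* and *Ndufa4l2*, had 33534 CPM of *Eln* in room air versus 18335 in hyperoxia, for a log2 ratio of -0.87 (-0.91 to -0.84). Its other leading genes were *Tusc5*, *Olfr558*, *Col8a1*, *Notch3*, *Cox4i2* and *Ebf1*. All 8 pericyte markers were raised in cluster 9, but whether its cells are pericytes was not tested. Cluster 6, led by *Higd1b*, *Cox4i2* and *Clstn2*, had 385 and 233 CPM (-0.73, -0.97 to -0.48), and in hyperoxia it was below the level of B-like cells. The class as a whole showed the opposite direction, with 8292 CPM in room air versus 10198 in hyperoxia (0.30, 0.26 to 0.33), and that ratio ran from 0.03 to 3.3 over 10 other settings, the highest with each library clustered on its own. The 8 myofibroblast markers, all detected, summed to 1131 and 1717 CPM in the class (*Aspn* highest at 496 and 1122 CPM, the other 7 at 635 and 594 CPM). Smooth muscle markers summed to 1198 CPM (6 of 8 detected, *Pln* and *Hhip* at 0, *Des* highest at 418 CPM) and 1766 CPM (8 of 8, *Myh11* highest at 669.5 CPM). Their part in the class ratios was not tested. The 2 clusters were represented unequally. Room air had 32 cells in cluster 9 and 96 in cluster 6, and hyperoxia had 137 and 100. *Loxl1* behaved likewise, at 112 and 181 CPM over the class but 431 and 324 CPM in cluster 9 and 11.4 and 5.39 CPM in cluster 6, the latter on 11 and 5 UMIs, and its class ratio of 0.70 ran from 0.37 to 3.51 over the same settings. *Mfap4* in cluster 9 was at 1864 CPM in room air versus 233 in hyperoxia (-3.0, -3.21 to -2.78), and *Fbln5* at 116 and 41.4 CPM (-1.49, -2.15 to -0.81). In the pericyte-like class the 8 alveolar fibroblast markers, all detected, summed to 1057 CPM in room air versus 452 CPM in hyperoxia, with *Npnt* highest at 588 and 174 CPM, and their part in the *Mfap4* values was not tested. Over the class *Mfap4* stood at 482 and 162 CPM (-1.57, -1.77 to -1.38), but within cluster 6 at 48.8 and 74.4 CPM (0.61, 0.05 to 1.17), below B-like cells in both libraries, and the class ratio was 1.5 when each library was clustered on its own. *Fbn1*, in contrast, was similar in the 2 clusters, with 726 and 1045 CPM in cluster 9 and 659.6 and 846 CPM in cluster 6.

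**Figure D4:**
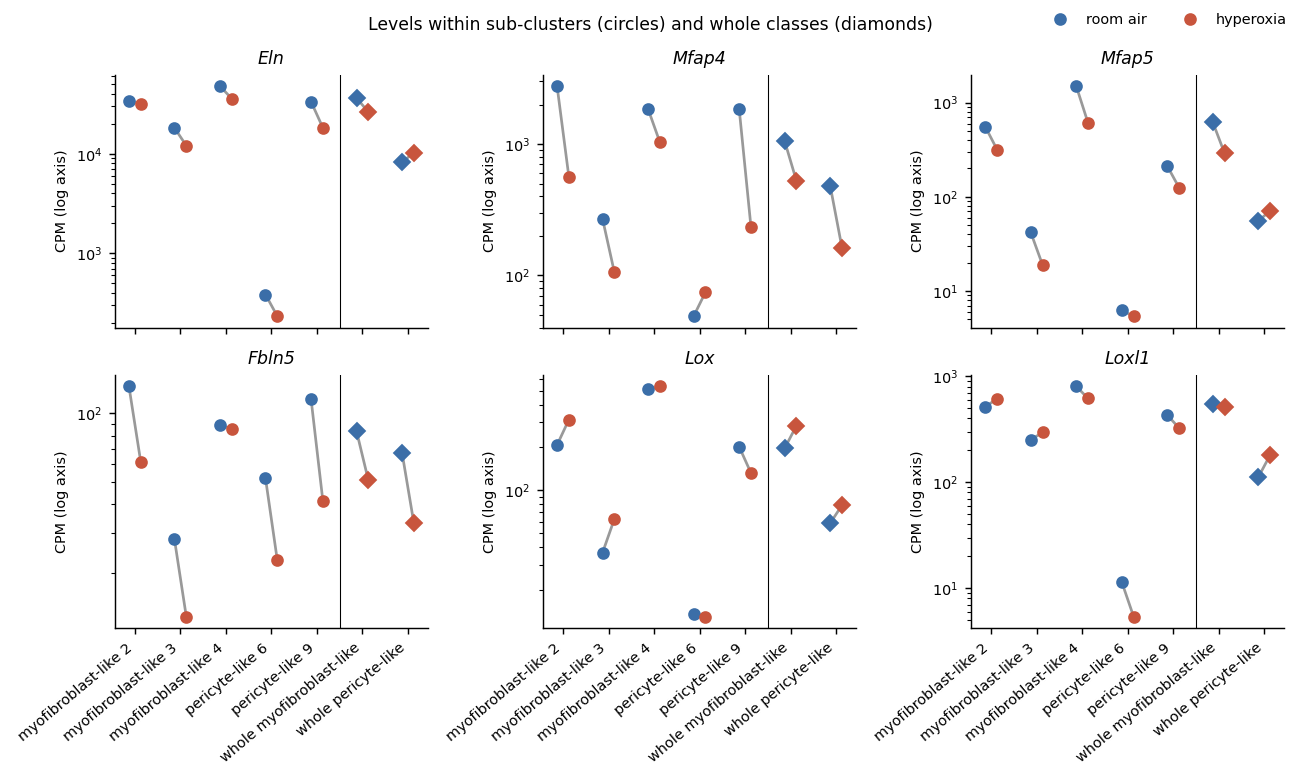
CPM (log axis) of 6 members within the sub-clusters of myofibroblast-like and pericyte-like cells that held at least 20 cells of each library (circles), and in the whole classes (diamonds), in room air (blue) and hyperoxia (red). *Eln* and *Loxl1* slope down within both pericyte-like clusters and up in the whole class, while *Mfap4* and *Mfap5* slope down in every myofibroblast-like cluster shown.

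Endothelial cells of larger vessels expressed part of the set. Artery-like cells had 2484 CPM of *Eln* in room air versus 9474 in hyperoxia (log2 ratio 1.93, 1.87 to 1.99), 741 and 2891 CPM of *Fbln5* (1.96, 1.86 to 2.07) and 51.2 and 299 CPM of *Lox* (2.54, 2.14 to 2.97). This class also held 2 clusters in unequal numbers. Cluster 7 of the endothelial cells, led by *Sfrp1*, *Cytl1*, *Gkn3*, *Gja5* and *Bmx*, held 27 cells of room air and 130 of hyperoxia, and endothelial cluster 9, led by *Esm1*, *Gja5* and *Wif1*, held 103 and 30. Within cluster 7 *Eln* was at 7745 and 11228 CPM (0.54, 0.47 to 0.60), *Fbln5* at 2481 and 3427 CPM (0.47, 0.35 to 0.58) and *Lox* at 191 and 356 CPM (0.90, 0.50 to 1.32). Within endothelial cluster 9 *Eln* was at 551 and 312 CPM, against 289 and 294 CPM in B-like cells, and *Fbln5* at 102 and 93.1 CPM. *Mfap5* in cluster 7 was at 6.69 CPM in room air, where it rested on 2 UMIs, and at 71.3 CPM in hyperoxia (3.41, 1.52 to 6.48).

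Vein-like cells went the other way for *Eln*. They had 14649.8 CPM in room air versus 6825 in hyperoxia (log2 ratio -1.10, -1.15 to -1.06), and 36 and 136 cells. Within their main cluster, led by *Slc6a2*, *Ptgs2* and *Vwf*, *Eln* was at 15606 and 8065 CPM (-0.95, -1.0 to -0.91). In the same cluster *Fbn1* was at 145 and 75.6 CPM (-0.94, -1.43 to -0.44) and *Lox* at 68.5 and 27.1 CPM (-1.34, -2.11 to -0.54), whereas *Fbln5* was at 2079.8 and 2621 CPM (0.33, 0.22 to 0.45).

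The genes most like each member were found by Pearson correlation of log2(CPM + 1) over 43 pairs of class and library with at least 20 cells, among 8337 other genes. These pairs share 2 libraries and are not independent, so the coefficients are given as a description. *Eln* was most like *Bgn*, which encodes the small proteoglycan biglycan (r = 0.97), followed by *P3h3* (0.94), *Col5a1* (0.93), *Mgp* (0.93) and *Ddr2* (0.93). *Bgn* and *P3h3* were also nearest to *Fbn1*. *Loxl1* was nearest to the fibrillar collagen gene *Col1a2* (0.97) and to *Col6a3* (0.96), *Lox* to *Col5a2* (0.90) and *Kdelr3* (0.87), *Mfap5* to *Col3a1* (0.94) and *Mgp* (0.93), *Fbln1* to *B3gnt9* and *Col3a1* (both 0.91), and *Mfap4* to *Dpt* (0.95) and *Pcolce2* (0.94). *Emilin1* was nearest to *Pros1* (0.89) and *Zcchc24* (0.87). *Fbn2* (*Aebp1*, 0.85, and *Trip6*, 0.82) and *Fbln5* (*Cd59a* and *Limch1*, both 0.85) had less close neighbours. Among the members, *Eln* and *Fbn1* were the closest pair (0.93) and *Fbn2* and *Emilin1* the least alike (0.32).

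A further 56 genes of elastic fibre assembly and turnover, in 5 lists, were read in the same myofibroblast-like cells. Of the 20 other core and microfibril genes, 13 reached 10 CPM, of which 2 were at least 1.5-fold lower and 1 higher, beside 5.69% and 5.38% of all genes in these cells. The lower ones were *Adamts17*, a protease of the family that acts on fibrillin microfibrils, with 129.8 CPM in room air versus 25.4 in hyperoxia (-2.35, -2.57 to -2.14), and *Mfap2*, a microfibril glycoprotein gene, with 852 and 473 CPM (-0.85, -0.91 to -0.79). *Ltbp1*, a latent TGF-beta binding protein gene, was the higher one, with 19.5 and 40.7 CPM (1.06, 0.75 to 1.37). *Ltbp1*, *Ctss* and *Timp1* were named after their values had been seen. *Ltbp2*, the gene of this list with the highest level in stromal cells, had 2220.4 and 2313 CPM (0.06, 0.03 to 0.09). *Adamtsl2* (95.4 and 107 CPM) and *Hspg2* (181 and 194 CPM) had the largest ratios among genes of at least 50 CPM, at 0.16 and 0.11.

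Of 9 cross-linking and processing genes, 7 reached 10 CPM, with 0 lower and 1 higher (all genes, 5.69% and 5.38%). The higher one was *Loxl2*, another lysyl oxidase, with 728 CPM in room air versus 1109 in hyperoxia (0.61, 0.56 to 0.66), and *Loxl3* had 45.5 and 62.2 CPM (0.45, 0.24 to 0.66). *Furin*, a proprotein convertase, had 82.4 and 57.6 CPM (-0.52, -0.70 to -0.33), and *Bmp1*, which removes the propeptide of lysyl oxidase, 157 and 119 CPM (-0.39, -0.52 to -0.26). None of the 6 receptor and integrin genes that reached 10 CPM passed 1.5-fold. In this list *Itgav* had 131 and 189.8 CPM (0.53, 0.41 to 0.66), *Itgb5* 78.2 and 91.8 CPM, and *Ctsa* 86.0 and 71.9 CPM. *Itga8*, its highest gene over all stromal cells, was at 193 and 335 CPM there.

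Among 12 genes of elastin-degrading proteases, 5 reached 10 CPM, with 1 lower and 1 higher (all genes, 5.69% and 5.38%). *Mmp2*, a gelatinase gene, had 371 CPM in room air versus 685 in hyperoxia (0.88, 0.81 to 0.96). *Ctsl*, a lysosomal cathepsin gene, had 903 and 603 CPM (-0.58, -0.64 to -0.53), *Ctsk* 59.1 and 45.6 CPM (-0.37, -0.58 to -0.17) and *Mmp14* 339.5 and 358 CPM. The lower gene was *Ctss*, a cathepsin gene typical of myeloid cells, with 17.6 and 11.5 CPM (-0.62, -1.02 to -0.21). The 8 myeloid markers in these cells summed to 165 and 120.2 CPM, all 8 detected, with *Lyz2* highest at 74.2 and 81.5 CPM, and their part in the value of *Ctss* was not tested. Among 8 elastase inhibitor genes, 4 reached 10 CPM, with 0 lower and 2 higher (all genes, 5.69% and 5.38%). *Timp3*, a matrix-bound metalloproteinase inhibitor gene, had 496 and 1161 CPM (1.23, 1.17 to 1.29), and *Timp1*, a secreted inhibitor gene of the same family, 23.6 and 74.4 CPM (1.66, 1.39 to 1.94). *Cst3*, the highest of the list, had 3129 and 4253 CPM (0.44, 0.42 to 0.47), and *Timp2* 601 and 628 CPM. *Sftpc*, an alveolar type 2 gene that these cells should lack, stood at 195 and 416 CPM in the myofibroblast-like cells.

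**Figure D5:**
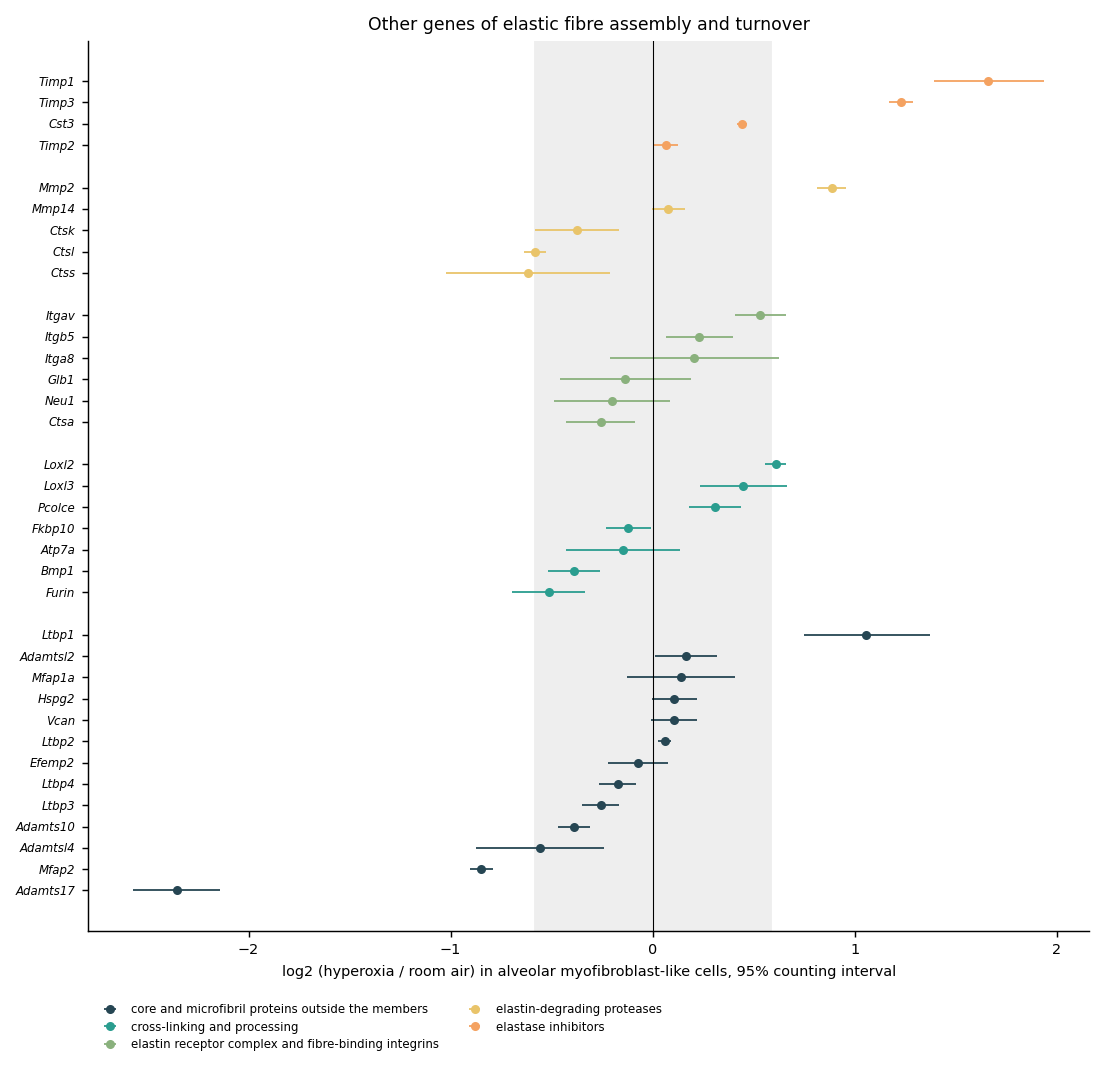
Log2 ratio of hyperoxia over room air in alveolar myofibroblast-like cells for the other genes of elastic fibre assembly and turnover with a mean of at least 10 CPM, coloured by list, with exact 95% counting intervals and the range within 1.5-fold shaded. *Adamts17*, *Mfap2* and, narrowly, *Ctss* lie to the left of that range, and *Ltbp1*, *Loxl2*, *Mmp2*, *Timp3* and *Timp1* to the right.

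In alveolar fibroblast-like cells 1 of 14 core and microfibril genes was lower and 3 higher, 1 of 6 cross-linking genes was lower and 1 higher, 1 of 7 receptor and integrin genes was lower, 1 of 4 protease genes was higher, and 1 of 5 inhibitor genes was lower and 1 higher (all genes, 6.98% lower and 8.26% higher). In adventitial fibroblast-like cells 2 of 19 core genes were lower and 1 higher, and 1 of 7 cross-linking, 3 of 6 receptor and integrin, 0 of 4 protease and 3 of 6 inhibitor genes were higher, with none of these lower (9.92% and 10.1%). In smooth muscle-like cells 3 of 13 core genes were lower and 2 higher, with 1 lower and 1 higher of both the 7 cross-linking and the 7 receptor and integrin genes, 0 of 3 protease genes past the margin and 1 of 5 inhibitor genes lower (15.2% in either direction). In pericyte-like cells 2 of 15 core genes were lower, 1 of 7 cross-linking and 1 of 5 protease genes were lower and 1 of each higher, 0 of 6 receptor and integrin genes passed the margin, and 1 of 4 inhibitor genes was lower and 2 higher (11.5% and 9.7%). Over the 5 stromal classes, the median log2 ratio of the core and microfibril list ran from -0.43 in pericyte-like to 0.16 in alveolar fibroblast-like cells, and that of the cross-linking list from -0.16 in pericyte-like to 0.15 in adventitial fibroblast-like cells. The receptor and integrin list ran from -0.08 in smooth muscle-like to 0.28 in adventitial fibroblast-like cells, the protease list from -0.37 in myofibroblast-like to 0.32 in smooth muscle-like cells, and the inhibitor list from 0.17 in smooth muscle-like to 0.83 in myofibroblast-like cells. The medians over all genes of at least 10 CPM lay between -0.04 and 0.03 in these classes.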

How the data were processed

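The deposited tables held UMI counts per gene and barcode, made by the authors from 10x Genomics 3′ libraries aligned to mm10. Base calls were converted with bcl2fastq (2.20). For Cell Ranger the protocol gave version 6.1.1 and the submitters' processing notes 2.1.1, while the matrix header carried software version 3.1.0, so the version behind the counts is unsure. The extraction label and the study's methods also differed in the kit chemistry. Seurat (4.0) was named for the study's own analysis. The deposited counts were not normalised or filtered further.

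Barcodes with fewer than 500 genes (345 in room air, 1026 in hyperoxia) or over 20% mitochondrial UMIs (a further 80 and 486) were removed, and then simulated-doublet neighbours at 0.8% per 1000 barcodes (129 and 1239). The 2 libraries shared 17 barcode sequences. Cells were normalised to 10000 UMIs, log-transformed and clustered together (2000 variable genes, 30 principal components, 20 neighbours, Leiden resolution 1), first into 5 lineages and then within each lineage, with 66 reported genes kept out. Clusters were named where at least 3 markers were raised. No deposited cell annotation was used. The members and lists were chosen with earlier results of these data known. All 10 members are named. Of each other pathway list, the 2 highest and 2 lowest ratios in myofibroblast-like cells among genes of at least 50 CPM, and the gene with the highest stromal level, are named.

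UMIs were summed per class and library, and classes with at least 20 cells in both libraries were compared. Intervals were exact 95% Poisson (CPM), Clopper-Pearson (shares) and conditional binomial (ratios), and the limit for a count of 0 was 3 counts. Gene positions came from GENCODE M21 (GRCm38), which shares the build of the counts, and all 10 identifiers matched. Python (3.11.15), scipy (1.17.1), scikit-learn (1.9.0), leidenalg (0.10.2) and, for TMM factors alone, edgeR (4.0.16) were used. The ratios were tested on simulated counts. Other filters, doublet rates, resolutions, scalings, thresholds and depths were tried.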

Additional observations from a re-analysis of the deposited data

Results flagged for a closer look

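The log2 ratio of *Eln* lay above 0 in alveolar fibroblast-like cells (0.88) and below 0 in alveolar myofibroblast-like cells (-0.48), a gap of 1.36. The alveolar fibroblast-like ratio was 0.44 with 2 times the expected doublets removed, and the myofibroblast-like ratio was closer to 0 without cluster 5. *Mfap5* also had ratios of opposite sign in these classes (0.09 and -1.10), a gap of 1.19. For *Loxl1* the ratio was 0.70 in pericyte-like and -0.34 in alveolar fibroblast-like cells, a gap of 1.03, although within both pericyte-like clusters it was below 0 (-1.08, on 11 and 5 UMIs, and -0.41), and the pericyte-like class ratio ran from 0.37 to 3.51 over 10 other settings. These results were picked out because 1 class went one way and the other class the opposite way beyond counting error. With 1 library per condition the differences between classes were not tested.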

How the results depend on the processing

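Members were counted here over the myofibroblast-like cells as a class, not within their clusters. The count of lower members was 3 under each setting tried other than a 2-fold threshold (2) and 2 times the expected doublets removed (4). It was 2 without cluster 5, and the count of higher members was 0 in each of these. Over 10 other filters, scalings, clusterings and namings, the log2 ratio in these cells ran from -0.59 to -0.40 for *Eln*, -1.28 to -0.85 for *Mfap4*, -1.34 to -1.04 for *Mfap5* and 0.43 to 0.57 for *Lox*, and in alveolar fibroblast-like cells from 0.44 to 0.90 for *Eln*. Of 490 ratios recomputed in the 5 stromal classes, 36 took the opposite sign, 22 of them in smooth muscle-like and 0 in myofibroblast-like cells. For 6 of the 36 the interval of the reported ratio did not include 0. With a 2-fold threshold, 0 members were higher in alveolar fibroblast-like, adventitial fibroblast-like and smooth muscle-like cells, 0 were lower in smooth muscle-like cells and 1 was higher in pericyte-like cells. The count of higher members was 1 in alveolar fibroblast-like cells with 2 times the expected doublets removed, and 1 in adventitial fibroblast-like cells without mitochondrial, ribosomal protein and haemoglobin genes, as a mean over single cells, or with each cell named by its own score. The shares of all genes given above hold for 1.5-fold under the reported setting. None was counted at 2-fold or under another setting, so the counts of members there stand without such a share.

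The smooth muscle-like count of lower members was 2 with a stricter filter (1000 genes, 10% mitochondrial UMIs), at resolution 0.5 or with each library clustered on its own, and 0 without doublet removal or at a mean of 50 CPM. Its count of higher members was 2 with TMM factors or as a mean over single cells, 3 without doublet removal, and 0 with that filter, more doublets removed, resolution 0.5 or separate clustering. *Eln* there reversed to -0.41 with the stricter filter, -0.16 with more doublets removed, -0.40 at resolution 0.5, -0.44 with separate clustering and -0.083 by own score. In the same order, the smooth muscle-like class held 95, 81, 92, 123 and 64 cells of room air, against 36 as reported. In hyperoxia it held 304, 267, 293, 318 and 256 cells, against 165. In the same order, the myofibroblast-like class held 346, 360, 369, 363 and 409 cells of room air, against 425 as reported. In hyperoxia that class held 597, 605, 643, 642 and 711 cells, against 771. It also held fewer at resolution 2 (347 and 577) and without doublet removal (342 and 614). The smooth muscle-like class there held 36 and 165 cells, and 37 and 176. In pericyte-like cells 1 member was lower and 6 were higher with separate clustering, where *Mfap4* reversed to 1.5. The count of higher members was 0 without doublet removal and 1 with more doublets removed, by own score or at 50 CPM. No share of all genes past 1.5-fold was counted under any of these settings, so these counts stand without it. The cause of these shifts was not tested.

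Within sub-clusters, an alternative chosen after seeing the data, the pericyte-like ratios in clusters 6 and 9 were -0.73 and -0.87 for *Eln*, -0.061 and -0.61 for *Lox*, and -1.08 and -0.41 for *Loxl1*, and *Mfap4* was 0.61 in cluster 6. In myofibroblast-like cells *Loxl1* was 0.26 in cluster 2, 0.23 in cluster 3 and 0.22 without cluster 5, and *Emilin1* was 0.13 in cluster 2. Within cluster 2 *Fbn1* was more than 1.5-fold higher in hyperoxia, with 708 CPM in room air versus 1118 in hyperoxia. *Lox* also passed that margin, with 208 and 313 CPM in cluster 2 and 36.4 and 62.9 CPM in cluster 3. Keeping only stromal cells without UMIs of other lineages gave no value, since at most 9 cells per class and library remained. No paired analysis was possible because each condition had 1 library of pooled mice.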

Other observations

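Outside the stroma and the larger vessels, a few members stood above the background of B-like cells. AT1-like cells had 158 CPM of *Lox* (129 to 193) in room air versus 166 (143 to 193) in hyperoxia, against 1.45 and 6.81 CPM in B-like cells. *Fbn2* in AT1-like cells was at 42.4 CPM (27.9 to 61.6) in room air on 27 UMIs and at 9.39 CPM (4.5 to 17.3) in hyperoxia on 10 UMIs. *Eln* in interstitial macrophage-like cells was above that of B-like cells in room air alone, with 730.4 CPM (681 to 782) there and 174 CPM (157 to 191) in hyperoxia (log2 ratio -2.07, -2.25 to -1.90). The room air value rested on 827 UMIs in 88 cells, and how evenly they were spread over these cells was not tested. General capillary endothelial-like cells had 588 CPM of *Eln* (566 to 610) in room air versus 517 (501 to 533) in hyperoxia, above B-like cells in both libraries. No *Emilin1* UMI was found in AT1-like cells of either library.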
